A study of Mus musculus with 10 samples.

Results

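The effect of lowering Irf1 while cells underwent a TGFbeta-induced epithelial-mesenchymal transition (EMT) was measured by RNA sequencing of mouse NMuMG/E9 cells, a line of normal mammary gland epithelium of which a single subclone (Subclone 9) was used. The comparison set 3 libraries of cells given an siRNA against Irf1 and TGFbeta (siIrf1 TGFbeta, replicates 1, 2 and 3) against 2 libraries of cells given a control siRNA and TGFbeta (siCtr TGFbeta, replicates 2 and 3). These are 5 of the 10 libraries in the series, chosen by their labels and not by any measured value. In both groups siRNA was used at 20 nM, recombinant human TGFbeta1 was added at 2 ng/ml a day after transfection, and cells were harvested on day 3 after 2 d of TGFbeta. The other 5 libraries came from cells transfected for the same 3 d and never given TGFbeta (0 d): 2 with siCtr (replicates 1 and 3) and 3 with siIrf1 (replicates 1, 2 and 3). Every library came from transfected cells of the same subclone, and no untransfected culture is among the groups used. The labels do not say that replicates were separate cultures, so p-values reflect only how far these libraries scatter, and that scatter may be technical.

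Irf1 encodes interferon regulatory factor 1, a transcription factor that binds interferon-response elements and is best known for driving genes of antiviral defence and antigen presentation. TGFbeta signals through receptor kinases and Smad proteins. In mammary epithelial cells it is known to lower the junction protein E-cadherin and to raise N-cadherin, matrix proteins, integrins and the transcription factors that repress epithelial genes. The comparison asks how the gene expression of TGFbeta-treated cells differs when Irf1 mRNA is lowered.

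Levels are given as CPM, gene counts scaled to a common library total with library sizes adjusted by the TMM method, always for siCtr TGFbeta replicates 2 and 3 and then for siIrf1 TGFbeta replicates 1, 2 and 3. Changes are log2 fold changes of siIrf1 over siCtr ± standard error (SE) from edgeR's quasi-likelihood test on the counts, with p-values adjusted by Benjamini-Hochberg over all 13135 genes tested. "Rose" and "fell" are used for genes with an adjusted p under 0.05. CPM are not divided by gene length, so levels are compared within a gene and not between genes.

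Totals were 56004347 and 31480679 counts in the siCtr TGFbeta libraries and 33524404, 67301646 and 32035245 in the siIrf1 TGFbeta libraries. Replicate 2 of siIrf1 TGFbeta stood apart from the others of its group and was the deepest library. Across genes its log CPM correlated at 0.9797 with replicate 1 and 0.9707 with replicate 3, against 0.989 between replicates 1 and 3 and 0.9925 between the siCtr TGFbeta libraries. Among 10005 genes that averaged 5 CPM or more over the 5 libraries, 648 (6.48%) were at least 2-fold lower in replicate 2 than in both other siIrf1 TGFbeta replicates, and 7 were at least 2-fold higher. The 648 genes had a median GC content of 42.8%, against 49.8% for all genes tested. Of the 648, 630 were not called in the comparison. For replicate 1 the same counts were 0 lower and 25 higher, and for replicate 3 they were 66 lower and 5 higher. A GC index, the level of low-GC genes less that of high-GC genes on the log2 scale, was -0.27 and -0.28 in the siCtr TGFbeta libraries. It was 0.7, -0.38 and 0.88 in siIrf1 TGFbeta replicates 1, 2 and 3, so that replicate 2 lay beside the siCtr TGFbeta libraries. At 0 d the index was -1.5 and -0.56 in siCtr replicates 1 and 3. It was 0.6, 0.06 and 0.79 in siIrf1 replicates 1, 2 and 3 at 0 d. Genes that rose had a median GC content of 46.1% and genes that fell 53.5%. The part of this index in the calls was not tested, and list counts of 2 or more that move by over 1.5 times with the trend removed are given with their new value.

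**Figure D1:**
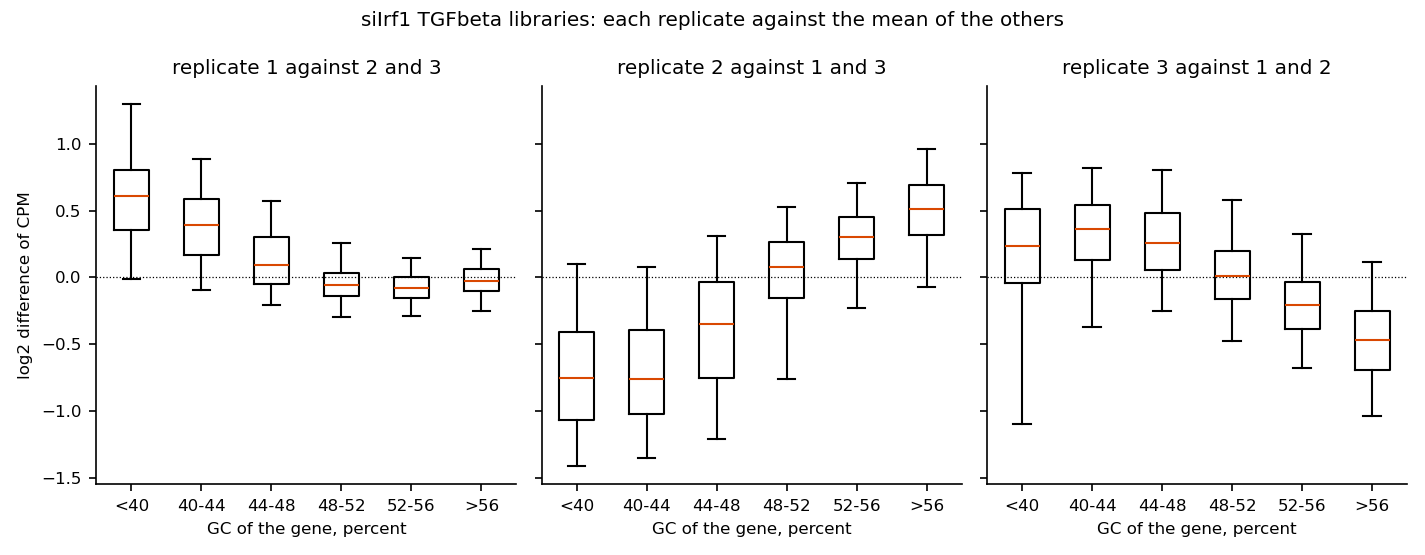
Log2 difference of each siIrf1 TGFbeta replicate from the mean of the other replicates of its group (y axis) by the GC content of the gene (x axis, percent), for genes averaging 5 CPM or more. Lines in the boxes are medians, boxes span the quartiles and whiskers the 5th to 95th percentiles. Replicate 2 has a median of -0.76 in genes under 40% GC and of 0.51 in genes over 56% GC, while replicate 3 has a median of -0.47 in genes over 56% GC.

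Irf1 (Entrez gene 16362, chr11:53770014-53778374 in GRCm38.p6) was present at 106 and 112 CPM in the siCtr TGFbeta libraries. It was at 36.5, 46.1 and 41.04 CPM in siIrf1 TGFbeta replicates 1, 2 and 3. All siIrf1 libraries lay below both siCtr libraries, and replicate 2 kept the most Irf1 mRNA. The change was -1.40 ± 0.153 (edgeR, adjusted p = 3.48e-04). Within replicate number 2 the log2 difference was -1.20 and within number 3 it was -1.43. The fall at 0 d was -1.22, and the difference between conditions did not pass the test (interaction -0.18 ± 0.219, adjusted p = 0.690).

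With TGFbeta, 2365 genes (18%) differed between siIrf1 and siCtr by edgeR's quasi-likelihood test. Of all genes tested 9.72% (1277) rose and 8.28% (1088) fell, and 1010 and 637 of these changed at least 2-fold. The groups' libraries did not overlap for all 2365 called genes, and for 46.3% of all genes tested. The median change over all genes was 0.05. Leaving out siCtr TGFbeta replicate 2 or 3, so that the remaining library is assumed to vary like those of the other groups, left 762 calls (318 higher and 444 lower) and 859 calls (372 higher and 487 lower). Leaving out siIrf1 TGFbeta replicate 1 left 1570 (877 higher and 693 lower). Removing a trend with gene length and GC content gave 3597 calls, of which 1766 were higher and 1831 lower.

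**Figure D2:**
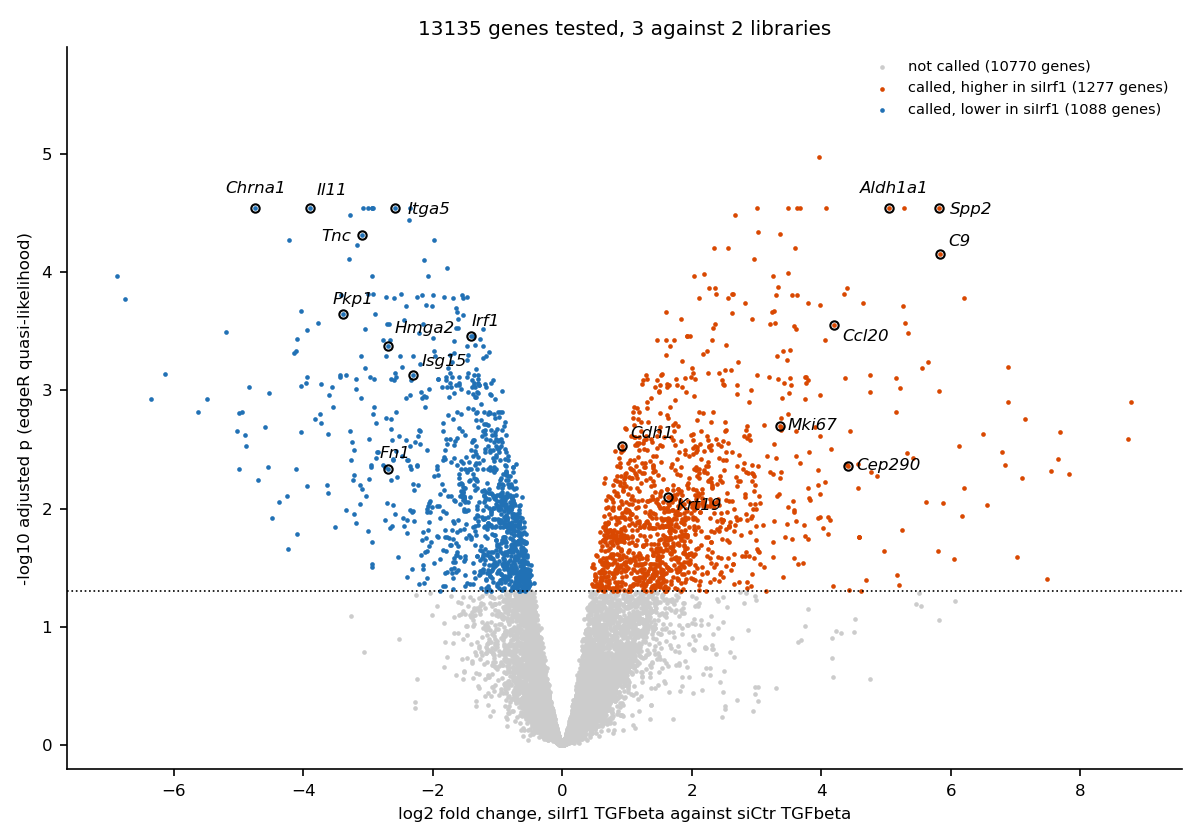
Each point is 1 of 13135 genes, placed by its log2 fold change in siIrf1 TGFbeta against siCtr TGFbeta (x axis) and by the -log10 adjusted p of edgeR's quasi-likelihood test (y axis). The dotted line marks an adjusted p of 0.05. Tnc, Itga5, Il11 and Chrna1 lie far to the left and high, Spp2, C9 and Aldh1a1 far to the right, and Irf1 at -1.40.

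Without siIrf1 TGFbeta replicate 2 the test called 12.8% of genes as higher (1673) and 9.96% as lower (1305). The direction was shared by replicate 2 in 1581 of the 1673 genes (94.5%) and in 1282 of the 1305 (98.2%). Its shifts over these genes were smaller. The median log2 difference from the siCtr mean over the genes that rose was 1.249 in replicate 1, 0.846 in replicate 2 and 1.101 in replicate 3. Over the genes that fell it was -0.87, -0.75 and -0.97. In 160 of the genes called higher and 50 of those called lower, replicate 2 lay within the siCtr values or beyond them. Replicates 1 and 3 chose these genes and replicate 2 did not, and that choice alone tends to make the shifts of replicate 2 smaller. All are set against the same siCtr libraries. For genes called over all libraries, the median log2 difference within replicate number 2 was 1.047 for rises and -0.949 for falls. Within number 3 the medians were 1.086 and -1.001.

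The genes below were not called over all libraries but were called when siIrf1 TGFbeta replicate 2 was left out. That rule chose them, so they are examples and no evidence that replicate 2 departs. Slc5a3, a myo-inositol transporter, was at 9.58 and 6.13 CPM in siCtr and at 28.6, 15.6 and 42.8 CPM in siIrf1, with 1.88 ± 0.652 (edgeR, adjusted p = 0.0755) over all libraries and 2.18 (adjusted p = 0.0384) without replicate 2. Atp7a, a copper transporter, was at 8.50 and 8.19 against 34.1, 15.9 and 37.9 CPM, with an adjusted p of 0.0800 that became 0.0395. The zinc finger gene Zfp871 was at 22.6 and 11.7 against 75.7, 31.9 and 79.0 CPM. For these genes replicate 2 lay on the side of the other siIrf1 libraries but nearest to siCtr. Zfp991 differed from them, since its replicates were at 15.5, 3.74 and 3.43 CPM against 1.28 and 2.30 CPM in siCtr, and replicate 1 was the library apart. On the lower side, Mif, an inflammatory cytokine, was at 65.9 and 50.1 against 23.5, 37.8 and 10.6 CPM (adjusted p = 0.0771, and 0.0167 without replicate 2). Dpm3, a subunit of dolichol-phosphate mannose synthase, was at 24.1 and 17.7 against 7.41, 13.3 and 3.28 CPM, and the exchange factor Arhgef19 at 31.6 and 24.2 against 12.7, 16.9 and 5.05 CPM. Aldoart2 was at 7.13 and 3.90 against 2.42, 6.09 and 1.44 CPM, the only one of these 8 genes in which replicate 2 fell between the siCtr libraries. Mif and Aldoart2 have close copies in the genome, and their counts are uncertain.

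Gene groups were described by lists of pathway members. The count of members that rose or fell in a list stands beside the share of all genes that rose (9.72%) or fell (8.28%), and a list is not a test.

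**Figure D3:**
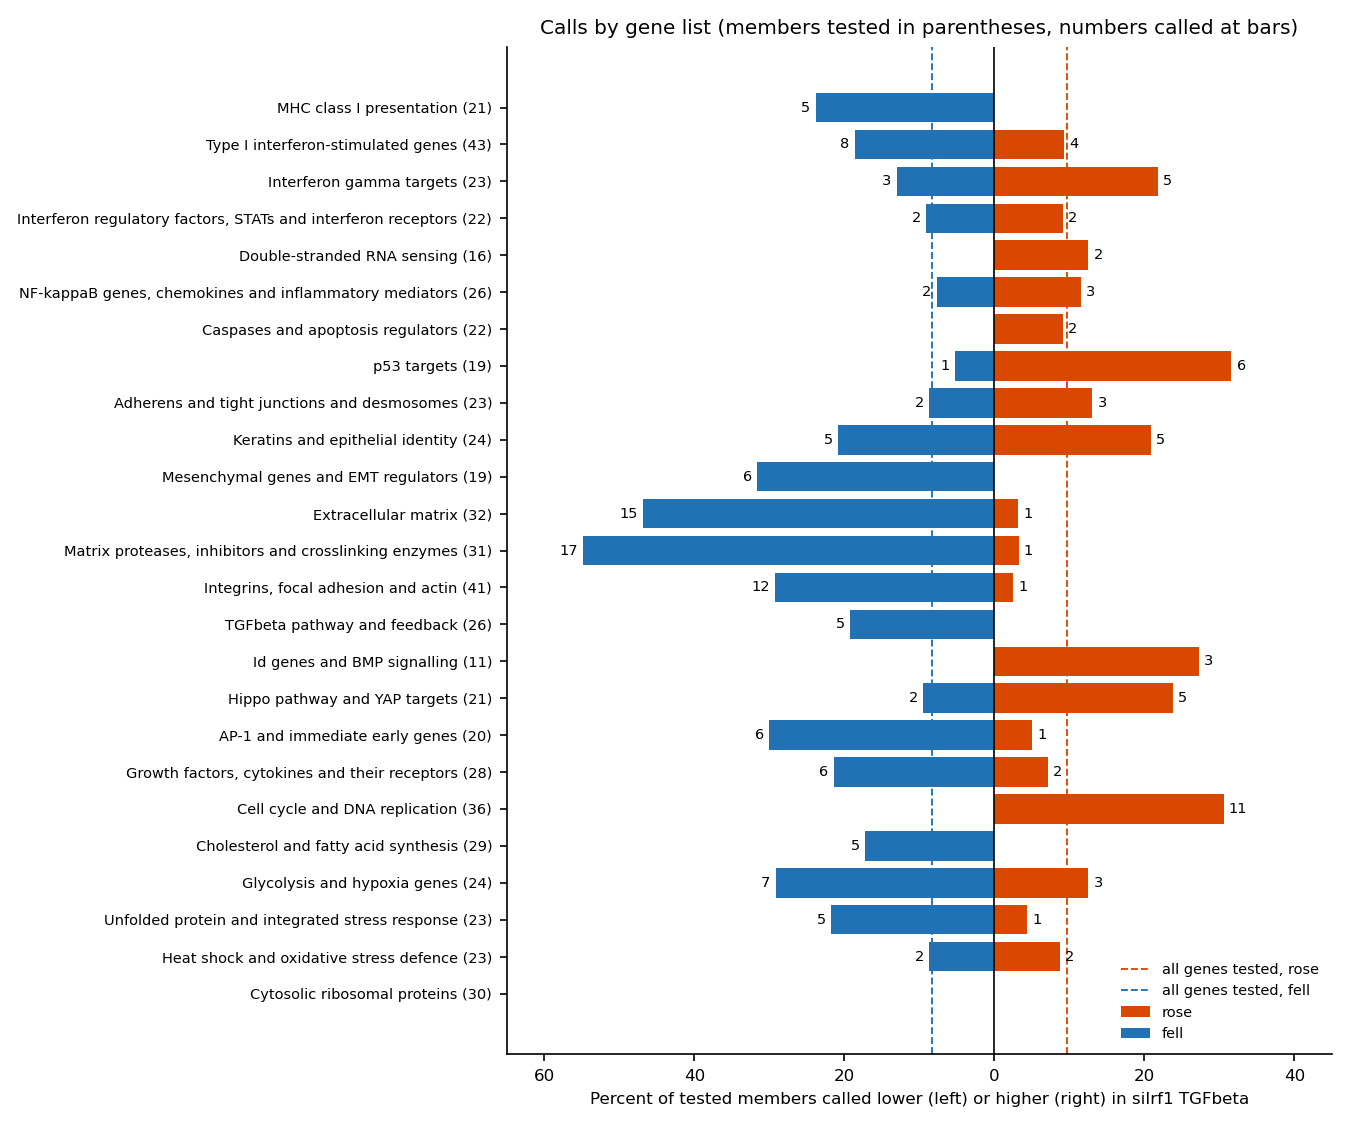
Percent of the tested members of 25 gene lists that fell (bars to the left) or rose (bars to the right) in siIrf1 TGFbeta, with the number called at each bar and the number tested in parentheses. Dashed lines mark the share of all genes tested, 8.28% for falls and 9.72% for rises. Matrix proteases (17 of 31 fell), extracellular matrix (15 of 32) and mesenchymal genes (6 of 19) reach furthest left, and p53 targets (6 of 19 rose) and cell cycle genes (11 of 36) furthest right.

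Genes of antigen presentation by MHC class I, a pathway in which peptides cut by the immunoproteasome are pumped into the endoplasmic reticulum and loaded on class I molecules, were lower in part. Of 21 members tested 5 fell (23.8%) and 0 rose by edgeR, with 0 higher at an unadjusted p under 0.05 and 0 by DESeq2, and the median change was -0.39. The peptide pump subunit Tap2 was at 2.36 and 2.53 CPM in siCtr and at 0.620, 0.809 and 0.572 CPM in siIrf1 (-1.84 ± 0.276, edgeR adjusted p = 0.00187). Tapbp, the tapasin that holds class I molecules at the pump, was at 198 and 177 against 68.7, 83.2 and 72.5 CPM (-1.32 ± 0.192). The immunoproteasome subunit Psmb10 was at 31.3 and 24.9 against 9.03, 12.8 and 4.48 CPM, and the proteasome activators Psme1 and Psme2 fell by 0.72 and 1.02 on the log2 scale. In each of these 5 genes the libraries of the groups did not overlap, as in every called gene and in 46.3% of all genes tested. Replicate 2 was the siIrf1 library nearest to siCtr in each. The class I heavy chains H2-K1 and H2-D1, B2m, Tap1 and Psmb9 were not called. At 0 d, 14 of the 21 members fell, against 15.5% of all genes tested. The interaction was called with a positive value for 2 members, and for 368 of all 13135 genes tested. Without siCtr TGFbeta replicate 2 or 3 the falls numbered 3 each, and with the GC trend removed 8.

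Among 43 type I interferon-stimulated genes 8 fell (18.6%) and 4 rose (9.30%), with a median of -0.17. Isg15, a ubiquitin-like protein conjugated to others after interferon, was at 2.36 and 2.23 CPM in siCtr and at 0.561, 0.491 and 0.331 CPM in siIrf1 (-2.30 ± 0.286, edgeR adjusted p = 7.37e-04). Uba7, the enzyme that activates Isg15, was at 27.8 and 27.4 against 12.1, 14.5 and 10.9 CPM (-1.14). Lgals3bp, a secreted glycoprotein, was at 132 and 126 against 52.04, 64.9 and 59.3 CPM (-1.13 ± 0.164, adjusted p = 0.00153). These 3 genes changed alike in all siIrf1 replicates. Parp12, Parp14, Dtx3l, Xaf1 and Rtp4 also fell, by 0.64 to 2.08 on the log2 scale. The members that rose were Ifit2 (8.69 and 4.80 against 29.7, 16.1 and 28.9 CPM), Herc6, Cmpk2 and Samd9l. Samd9l was at 1.86 and 3.36 against 24.6, 16.0 and 5.66 CPM and so varied over 4-fold among the siIrf1 replicates. Oas, Mx2, Rsad2, Usp18 and Bst2 genes were among the 31 not called. The falls numbered 3 without siCtr TGFbeta replicate 2 or replicate 3, 4 without siIrf1 TGFbeta replicate 1 and 5 without replicate 3. The rises numbered 1, 0, 2 and 2 in the same order.

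Of 23 targets of interferon gamma 3 fell and 5 rose. Gbp2, a guanylate-binding protein of cell-autonomous defence, was at 4.45 and 5.13 CPM in siCtr and at 0.767, 0.564 and 0.542 CPM in siIrf1 (-2.94 ± 0.252, edgeR adjusted p = 1.07e-04). Igtp, an immunity-related GTPase, was at 6.92 and 9.13 against 3.57, 4.24 and 3.91 CPM, and Cd74, the class II invariant chain, fell by 1.57 on the log2 scale. The adhesion molecule Vcam1 went the other way, from 1.79 and 3.13 CPM to 20.4, 18.8 and 29.6 CPM (3.24 ± 0.323, adjusted p = 2.17e-04). Icam1, another adhesion molecule, was at 0.298 and 0.233 against 1.80, 2.31 and 2.11 CPM, and the chemokine Cxcl10 at 0.893 and 0.799 against 2.98, 2.56 and 4.30 CPM. Gbp7 and Iigp1 rose from levels near 0. Gbp and Irg genes lie in families of close copies, so their counts are uncertain. Without siCtr TGFbeta replicate 2 or 3, 2 members rose, and 1 fell without replicate 3. With the GC trend removed 5 fell.

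Interferon regulatory factors, STATs and interferon receptors were mostly not called, with 2 of 22 higher and 2 lower. Stat2, a partner of Irf9 in type I interferon signalling, was at 55.5 and 59.4 CPM in siCtr and at 24.1, 30.7 and 35.9 CPM in siIrf1 (-0.93, edgeR adjusted p = 0.0093). Ifnar1, a chain of the type I interferon receptor, was at 202 and 229 against 130, 129 and 134 CPM (-0.72 ± 0.126), a call that ended without siCtr TGFbeta replicate 3 (adjusted p = 0.0582). Irf8 rose from 0.558 and 0.333 CPM to 3.57, 6.66 and 3.701 CPM (3.34 ± 0.423). Irf2, Irf3, Irf7 and Irf9 were not called. Of 16 genes of double-stranded RNA sensing, Sting1 (0.78) and Ikbke (0.85) rose and 0 fell by edgeR (2 at an unadjusted p under 0.05 and 1 by DESeq2). Neither rise remained called without siCtr TGFbeta replicate 2 (adjusted p = 0.280 and 0.300) or replicate 3 (0.127 and 0.118).

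The interferon-response element was looked for in RefSeq promoters of GRCm38.p6, from 250 bases before to 50 after each gene's start, as GAAA, any 2 bases and GAAA again, on either strand and with overlapping matches kept. It was present in 382 of the 10338 tested genes that have such a promoter (3.695%), in 42 of 825 genes that fell (5.09%) and in 45 of 999 that rose (4.50%). In the type I interferon-stimulated list 15 of 34 promoters held it, among targets of interferon gamma 9 of 17, and in MHC class I presentation 5 of 19. Over the interferon-related lists joined, 5 of 31 genes with the element fell and 2 rose, and 9 of 66 genes without it fell and 7 rose. The median changes were -0.16 and -0.11. Stretches are shown for 4 such genes that fell and 2 that rose, chosen because they hold the element, so that its letters can be compared. Each is written 5′ to 3′ on the strand of the gene, with the match in capitals.
Isg15, chr4:156200871-156200900, minus strand, fell: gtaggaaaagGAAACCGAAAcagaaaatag
Gbp2, chr3:142620594-142620623, plus strand, fell: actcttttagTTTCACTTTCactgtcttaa
Igtp, chr11:58199512-58199541, plus strand, fell: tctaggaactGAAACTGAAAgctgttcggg
Stat2, chr10:128270266-128270295, plus strand, fell: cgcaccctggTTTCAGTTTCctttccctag
Cxcl10, chr5:92349083-92349112, minus strand, rose: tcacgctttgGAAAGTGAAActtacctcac
Gbp7, chr3:142530273-142530302, plus strand, rose: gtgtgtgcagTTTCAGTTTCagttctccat
A match is a description of the sequence and not a measured binding site. Isg15 has 3 overlapping matches in this window, of which 1 is shown.

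EMT genes changed in part. Cdh1, which encodes E-cadherin (Entrez gene 12550, chr8:106603350-106670247), was at 339 and 362 CPM in siCtr TGFbeta and at 577, 702 and 722 CPM in siIrf1 TGFbeta. All siIrf1 libraries lay above both siCtr libraries. Cdh1 in siCtr cells at 0 d was at 694 and 586 CPM, so replicates 2 and 3 of siIrf1 TGFbeta lay above these levels and replicate 1 below them. The change was 0.93 ± 0.152 (edgeR, adjusted p = 0.00295; 0.0648 without siCtr TGFbeta replicate 2). Cdh2, which encodes N-cadherin, was at 336 and 329 against 193, 122 and 201 CPM (-0.95 ± 0.203, adjusted p = 0.0102), with replicate 2 the lowest. This call ended without siCtr TGFbeta replicate 2 or 3 (adjusted p = 0.0592 and 0.0523) and in a fit of the 5 TGFbeta libraries alone (0.0531). Snai1, a repressor of Cdh1, was at 15.0 and 11.2 against 5.87, 7.94 and 4.33 CPM (-1.11 ± 0.295, adjusted p = 0.0261). Its call ended in the same fit (0.0626), on removal of siCtr TGFbeta replicate 2 (0.192) or 3 (0.0622), and on removal of replicate 1 (0.0792) or 3 (0.0653) of siIrf1 TGFbeta.

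The intermediate filament gene Vim was at 1956 and 2050 CPM in siCtr and at 2357, 2450 and 1725 CPM in siIrf1 (0.12 ± 0.174, edgeR adjusted p = 0.6997), so the groups overlapped. Zeb1, another repressor of epithelial genes, was at 47.95 and 39.84 against 51.5, 21.6 and 48.1 CPM (-0.12 ± 0.435, adjusted p = 0.883), and replicate 2 was the lowest of the 5 libraries. The tight junction gene Ocln was at 9.51 and 11.99 against 14.8, 14.6 and 18.2 CPM (0.56 ± 0.203, adjusted p = 0.0832; 0.04 by DESeq2). Tjp1 was at 181 and 150 against 255, 129 and 316 CPM (0.49 ± 0.487, adjusted p = 0.555). In Tjp1 replicates 1 and 3 lay above siCtr and replicate 2 below it.

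Of 19 mesenchymal genes and EMT regulators 6 fell (31.6%) and 0 rose by edgeR (1 at an unadjusted p under 0.05 and 0 by DESeq2), with a median of -0.32. Hmga2, a chromatin protein that acts with Smads on Snai1, was at 181 and 152 CPM in siCtr and at 28.4, 14.8 and 34.5 CPM in siIrf1 (-2.69 ± 0.296, adjusted p = 4.20e-04). Ncam1, a neural adhesion molecule, was at 349 and 291 against 154, 134 and 156 CPM (-1.11 ± 0.186). Runx2, S100a4, Cdh2 and Snai1 were the other members that fell. Vim, Cd44, Axl, Zeb1, Zeb2 and Cdh11 were not called. The falls numbered 3 and 2 without siCtr TGFbeta replicate 2 or 3.

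**Figure D4:**
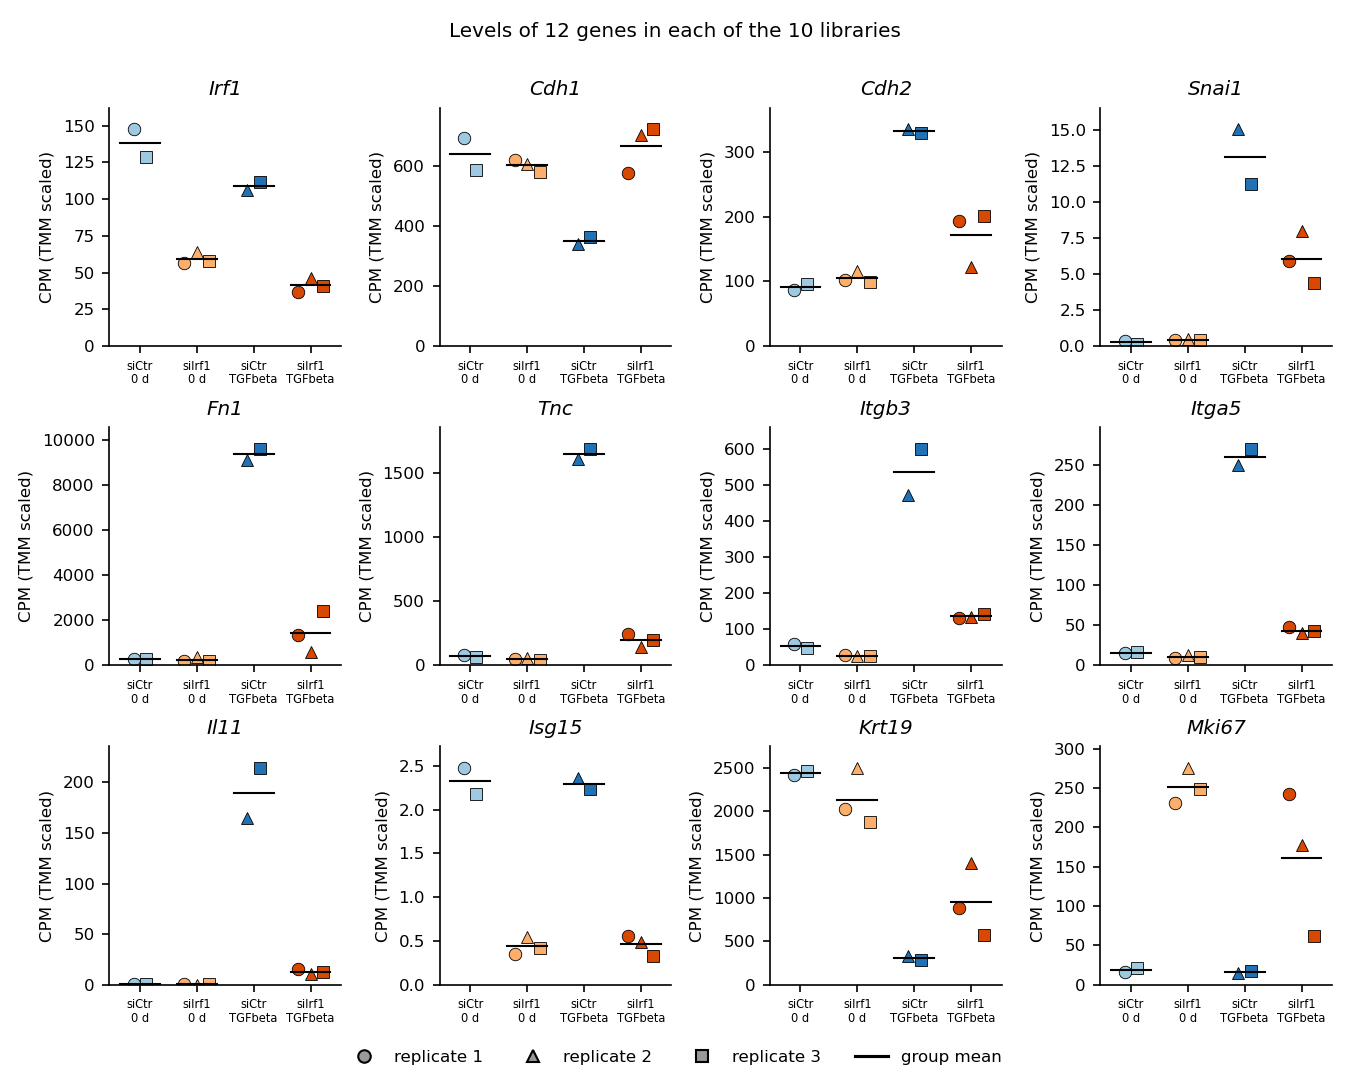
CPM (TMM scaled, linear axes from 0) of 12 genes in each of the 10 libraries, by group. Marker shapes give the replicate number and lines the group means. With TGFbeta the siIrf1 libraries are below the siCtr libraries for Irf1, Cdh2, Snai1, Fn1, Tnc, Itgb3, Itga5, Il11 and Isg15 and above them for Cdh1, Krt19 and Mki67.

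Junction genes moved in both directions, with 3 of 23 higher, Cdh1 among them, and 2 lower. Marveld2, the tricellulin of tricellular junctions, was at 4.73 and 3.73 CPM in siCtr and at 9.86, 11.1 and 10.9 CPM in siIrf1 (1.32 ± 0.198, edgeR adjusted p = 0.00186), and Cgn, the cingulin of tight junctions, rose by 0.95. The desmosomal plakophilin Pkp1 fell from 25.3 and 23.4 CPM to 2.60, 2.47 and 1.93 CPM (-3.38 ± 0.337, adjusted p = 2.27e-04), and Pkp3 fell by 2.07 on the log2 scale. Pkp1 was at or below 0.136 CPM in all 0 d libraries. The rises numbered 1 without siCtr TGFbeta replicate 2, 5 without siIrf1 TGFbeta replicate 2 and 6 with the GC trend removed.

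Keratins and genes of epithelial identity also split, with 5 of 24 higher and 5 lower (20.8% each). Krt19, a keratin of simple epithelia, was at 332 and 282 CPM in siCtr and at 884, 1397 and 568 CPM in siIrf1 (1.63 ± 0.325, edgeR adjusted p = 0.00801; 0.0664 and 0.0902 without siCtr TGFbeta replicate 2 or 3). Krt18, another keratin of simple epithelia, was at 7667 and 7432 against 4337, 4771 and 3191 CPM (-0.88 ± 0.180, adjusted p = 0.00839). This call ended without siCtr TGFbeta replicate 2. Krt7 fell by 1.22 on the log2 scale. Elf3, an epithelial transcription factor, was at 48.4 and 45.8 against 17.5, 22.9 and 15.4 CPM (-1.34 ± 0.227), and Grhl2, another, was at 1.26 and 1.27 against 0.295, 0.188 and 0.1505 CPM (-2.59 ± 0.318). Crb3 and Pard6b, of apical polarity complexes, rose by 1.39 and 0.67, as did Ehf and Krt14. With either siCtr TGFbeta library left out 0 members rose.

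Of 32 extracellular matrix genes tested 15 fell (46.9%) and 1 rose, with a median of -0.73. Fn1, fibronectin (Entrez gene 14268, chr1:71585473-71653280), was at 9131 and 9615 CPM in siCtr TGFbeta and at 1337, 589 and 2412 CPM in siIrf1 TGFbeta (-2.70 ± 0.477, edgeR adjusted p = 0.00459). The siIrf1 replicates spread over 4-fold, with replicate 2 lowest. Tnc, the matrix glycoprotein tenascin-C, was at 1617 and 1694 against 243, 144 and 199 CPM (-3.09 ± 0.227, adjusted p = 4.85e-05). Fbln2, fibulin-2, was at 2784 and 2441 against 676, 613 and 564 CPM (-2.08 ± 0.178, adjusted p = 1.07e-04). Replicate 2 was the lowest siIrf1 library for Fn1 and Tnc and in the middle for Fbln2, and no siIrf1 library came near siCtr.

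Some collagen and laminin chains also fell. Col7a1, the anchoring fibril collagen, was at 230 and 162 CPM in siCtr and at 45.5, 51.2 and 31.0 CPM in siIrf1 (-2.20). Col18a1 was at 1447 and 1110 against 461, 569 and 325 CPM (-1.501), and Col6a1 at 67.2 and 61.0 against 23.5, 27.3 and 21.8 CPM (-1.40). The laminin chains Lamb3 and Lamc1 fell by 0.74 and 1.06 on the log2 scale. Spp1, the secreted phosphoprotein osteopontin, was at 906 and 701 against 341, 177 and 329 CPM (-1.51). The member that rose was Nid1, nidogen-1, from 0.651 and 0.566 CPM to 2.04, 1.92 and 2.98 CPM. Col1a1, Sparc, Thbs1, Vcan and Tgfbi were among the 16 not called. The falls numbered 8 without siCtr TGFbeta replicate 2 and 8 without replicate 3.

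Matrix proteases, their inhibitors and crosslinking enzymes had 17 falls in 31 genes (54.8%) and 1 rise, with a median of -0.69. Mmp19, a matrix metalloprotease, was at 12.7 and 13.5 against 2.30, 2.54 and 2.11 CPM (-2.49 ± 0.228, edgeR adjusted p = 1.54e-04), and Mmp9 and Mmp10 fell by 2.90 and 2.76 on the log2 scale. The siIrf1 replicates of Mmp19 lay close together. Inhibitors of metalloproteases fell too, Timp3 from 4.09 and 5.06 to 0.738, 0.593 and 0.511 CPM and Timp1 and Timp2 by 1.15 and 0.60. Loxl4, which crosslinks collagen, was at 576 and 616 against 318, 330 and 287 CPM (-0.93), and Bmp1, which trims procollagen, at 550 and 557 against 265, 277 and 220 CPM (-1.12). Serpinh1 was the member that rose, from 0.0930 and 0.133 CPM. The falls numbered 9 and 10 without siCtr TGFbeta replicate 2 or 3.

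Integrins, focal adhesion and actin genes had 12 falls among 41 (29.3%) and 1 rise, with a median of -0.37. Itga5, the alpha chain of the fibronectin receptor, was at 250 and 270 CPM in siCtr and at 47.3, 40.3 and 42.5 CPM in siIrf1 (-2.59 ± 0.172, edgeR adjusted p = 2.86e-05). Itgb3, the beta chain of the vitronectin receptor, was at 471 and 600 against 132, 133 and 142 CPM (-1.98 ± 0.151, adjusted p = 5.39e-05). In both genes the 3 siIrf1 replicates lay close together, replicate 2 included. The actin-binding genes Flna, Actn1 and Palld fell by 0.73, 0.68 and 1.59 on the log2 scale, and Palld was at 126, 68.7 and 126 CPM against 322 and 322. Tagln, a smooth muscle actin-binding protein, was at 51.6 and 71.9 against 27.7, 20.6 and 13.2 CPM (-1.59). Itga1 rose, from 3.63 and 3.76 CPM to 25.2, 13.9 and 27.1 CPM. Itgb1, Itgav, Vcl, Zyx and Acta2 were not called. The falls numbered 7 without siCtr TGFbeta replicate 3.

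Of 26 components of the TGFbeta pathway tested 5 fell (19.2%) and 0 rose by edgeR (0 at an unadjusted p under 0.05 and 0 by DESeq2), with a median of -0.24. Ltbp1, which holds latent TGFbeta in the matrix, was at 656 and 636 CPM in siCtr and at 293, 267 and 341 CPM in siIrf1 (-1.104 ± 0.170, adjusted p = 0.00215). Smurf1, a ubiquitin ligase for Smads and receptors, was at 256 and 246 against 145, 168 and 131 CPM (-0.76 ± 0.153), uncalled without siCtr TGFbeta replicate 2 (adjusted p = 0.0592). Acvr1, Bhlhe40 and Tgif1 fell by 0.76, 0.51 and 0.65. The receptors Tgfbr1 and Tgfbr2, Smad2, Smad3, Smad4 and the inhibitor Smad7 were not called. The falls numbered 2 without replicate 2 or 3 of siCtr TGFbeta or without siIrf1 TGFbeta replicate 1, 8 without siCtr 0 d replicate 1 or 3 or siIrf1 0 d replicate 2, 8 by DESeq2 and 10 with the GC trend removed.

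Among Id genes and BMP signalling 3 of 11 rose (27.3%) and 0 fell by edgeR (2 at an unadjusted p under 0.05 and 2 by DESeq2). Id2, an inhibitor of basic helix-loop-helix factors, was at 36.1 and 29.9 CPM in siCtr and at 89.3, 96.3 and 105 CPM in siIrf1 (1.56 ± 0.287, adjusted p = 0.00563; 0.0581 and 0.0849 without siCtr TGFbeta replicate 2 or 3). Hey1, a repressor induced by Notch and BMP, was at 1.36 and 2.30 against 5.82, 7.08 and 5.93 CPM (1.80 ± 0.302, adjusted p = 0.00331; 0.0595 without siCtr TGFbeta replicate 2). Bmpr2, a BMP receptor, rose by 1.11, and Id1 and Id3 were not called. The rises numbered 0 and 1 without siCtr TGFbeta replicate 2 or 3, and 5 with the GC trend removed, under which 3 fell.

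In the Hippo pathway, which restrains the coactivator YAP, 5 of 21 genes rose and 2 fell. The YAP target Ccn1 was at 1316 and 1486 CPM in siCtr and at 579, 479 and 588 CPM in siIrf1 (-1.35 ± 0.186, edgeR adjusted p = 0.00113), and F3, tissue factor, fell by 0.90. Ptpn14, a phosphatase that binds YAP, was at 301 and 296 against 429, 515 and 490 CPM (0.68 ± 0.139, adjusted p = 0.00850; 0.110 and 0.116 without siCtr TGFbeta replicate 2 or 3). The kinase Lats2 and the angiomotin Amotl1 rose by 0.79 and 0.62, and Yap1, Wwtr1 and Ccn2 were not called. Amot was at 23.5 and 23.7 against 69.2, 28.1 and 115 CPM, with replicate 2 nearest siCtr. With either siCtr TGFbeta library left out 0 genes rose and 1 fell, and with replicate 1 of siIrf1 TGFbeta left out 3 genes rose. With the GC trend removed 4 fell.

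AP-1 and immediate early genes had 6 falls in 20 (30%) and 1 rise, with a median of -0.18. Fosl1, a subunit of AP-1, was at 25.7 and 22.2 CPM in siCtr and at 4.49, 3.48 and 2.98 CPM in siIrf1 (-2.71 ± 0.255, edgeR adjusted p = 1.64e-04). Ier3, an early response gene, was at 439 and 456 against 225, 230 and 177 CPM (-1.09 ± 0.171), and Myc at 153 and 146 against 92.2, 82.1 and 82.8 CPM (-0.80). Fosb, Fosl2 and Klf10 also fell. Dusp6, a phosphatase of ERK, rose by 0.89. Fos, Jun, Junb and Egr1 were not called. The falls numbered 3 without either siCtr TGFbeta replicate.

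Growth factors, cytokines and their receptors had 6 falls in 28 (21.4%) and 2 rises. Il11, a cytokine of the IL-6 family, was at 165 and 214 CPM in siCtr and at 15.3, 10.3 and 12.7 CPM in siIrf1 (-3.90 ± 0.249, edgeR adjusted p = 2.86e-05). Vegfc, a growth factor of lymphatic vessels, was at 3.24 and 3.697 against 0.443, 0.578 and 0.632 CPM (-2.64 ± 0.338, adjusted p = 8.10e-04), and Wnt7a was at 97.9 and 101 against 32.8, 29.8 and 20.8 CPM (-1.84). Vegfa, Pdgfa and Lif fell by 0.71, 0.82 and 0.59 on the log2 scale. The receptors Fgfr2 and Erbb3 rose, Fgfr2 from 47.3 and 45.9 to 106, 100 and 127 CPM. Egfr, Met and the ligands Areg, Ereg and Hbegf were not called. The falls numbered 3 without replicate 2 or 3 of siCtr TGFbeta or without siIrf1 TGFbeta replicate 1 or 3, and 10 with the GC trend removed, under which 4 rose.

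NF-kappaB genes and inflammatory mediators were mostly not called, with 3 of 26 higher and 2 lower. The chemokine Ccl20 was at 0.781 and 0.866 CPM in siCtr and at 12.8, 11.7 and 20.7 CPM in siIrf1 (4.19 ± 0.428, edgeR adjusted p = 2.79e-04; 3.37 with the GC trend removed). Lcn2, lipocalin-2, was at 1.62 and 1.40 against 2.66, 3.46 and 2.80 CPM (0.97 ± 0.228, adjusted p = 0.0150; 0.115 and 0.169 without siCtr TGFbeta replicate 2 or 3). Ptgs2, the inducible cyclooxygenase, was at 169 and 175 against 82.7, 23.03 and 51.03 CPM (-1.72), with replicate 2 the farthest from siCtr. Nfkb1, Rela, Nfkbia and Tnfaip3 were not called. With either siCtr TGFbeta library left out 1 member rose and 0 fell, 1 fell without any one siIrf1 TGFbeta replicate, and 6 rose with the GC trend removed.

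Cell cycle genes were higher where they were called. Of 36 tested 11 rose (30.6%) and 0 fell by edgeR (0 at an unadjusted p under 0.05 and 0 by DESeq2), with a median of 0.48. Mki67, the proliferation antigen Ki-67, was at 14.3 and 17.1 CPM in siCtr and at 242, 178 and 61.6 CPM in siIrf1 (3.36 ± 0.499, adjusted p = 0.00199). Bub1, a mitotic checkpoint kinase, was at 9.04 and 7.99 against 63.1, 30.3 and 32.3 CPM (2.30 ± 0.377, adjusted p = 0.00322; 1.63 with the GC trend removed). Both genes varied widely among siIrf1 replicates. Steadier members rose less: Cdk1 was at 119 and 133 against 195, 209 and 201 CPM (0.68), Ccnb2 at 25.98 and 25.85 against 48.9, 53.2 and 43.4 CPM (0.91), and Birc5 at 66.5 and 68.7 against 119, 133 and 105 CPM (0.81). Pcna and Tyms rose by 0.58 and 0.80, and the Mcm genes, Top2a, Plk1 and Aurka were not called. The rises numbered 2 without siCtr TGFbeta replicate 2 and 2 without replicate 3, and 22 with the GC trend removed.

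Targets of p53 had 6 rises in 19 (31.6%) and 1 fall, with a median of 0.51. Cdkn1a, the cell cycle inhibitor p21, was at 151 and 162 CPM in siCtr and at 311, 386 and 316 CPM in siIrf1 (1.11). Btg2, an antiproliferative gene, was at 49.96 and 57.82 against 117, 116 and 104 CPM (1.06 ± 0.167, edgeR adjusted p = 0.00242), and Perp, a desmosomal p53 target, at 36.4 and 38.7 against 106, 106 and 132 CPM (1.61 ± 0.211, adjusted p = 8.92e-04). Ccng1, Trp53inp1 and Eda2r rose by 1.74 to 1.90, and in each replicate 2 was the lowest siIrf1 library. Ddit4 fell by 0.88. Mdm2, Sesn2 and Gdf15 were not called. The rises numbered 3 without siCtr TGFbeta replicate 3.

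Caspases and apoptosis regulators were represented by 2 rises in 22 and 0 falls by edgeR (2 at an unadjusted p under 0.05 and 1 by DESeq2). Xiap, an inhibitor of caspases, was at 10.6 and 11.7 CPM in siCtr and at 73.2, 34.3 and 42.6 CPM in siIrf1 (2.16 ± 0.423, adjusted p = 0.00742; 0.97 with the GC trend removed). Casp4, an inflammatory caspase, was at 0.7257 and 0.5995 against 2.95, 1.45 and 2.68 CPM (1.80 ± 0.391, adjusted p = 0.0110; 0.76 with the GC trend removed). Both calls ended without siCtr TGFbeta replicate 2 (adjusted p = 0.0833 and 0.0873) or replicate 3 (0.0633 and 0.101). The GC content was 36.8% for Xiap and 38.1% for Casp4. With the GC trend removed 6 members of the list rose and 3 fell.

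Most members of the metabolic lists were not called, and falls outnumbered rises among those that were. In cholesterol and fatty acid synthesis 5 of 29 fell (17.2%) and 0 rose by edgeR (1 at an unadjusted p under 0.05 and 1 by DESeq2), with a median of -0.01. The desaturase Scd1 was at 184 and 190 CPM in siCtr and at 78.3, 108 and 59.0 CPM in siIrf1 (-1.19 ± 0.241, adjusted p = 0.00838), and Scd2 changed by -1.17 ± 0.177. Fasn, fatty acid synthase, fell by 0.69 on the log2 scale, and Srebf2 was not called. With either siCtr TGFbeta library left out 1 gene fell, and with replicate 1 or 3 of siIrf1 TGFbeta left out 3 genes fell. The call of Scd1 ended without siCtr TGFbeta replicate 2 (adjusted p = 0.0552) or 3 (0.0603).

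Among glycolysis and hypoxia genes 7 of 24 fell (29.2%) and 3 rose, with a median of -0.35. Pfkfb4, which makes an activator of glycolysis, was at 23.1 and 22.2 CPM in siCtr and at 5.73, 5.88 and 4.27 CPM in siIrf1 (-2.10 ± 0.204, edgeR adjusted p = 1.89e-04). Pdk1, a kinase that inhibits pyruvate dehydrogenase, was at 12.6 and 13.0 against 37.2, 33.3 and 35.3 CPM (1.47 ± 0.189, adjusted p = 8.25e-04). The glucose transporter Slc2a1 was at 164 and 158 against 80.5, 112 and 83.2 CPM (-0.81), and Ndrg1 fell by 1.19, whereas Egln3 and Pfkfb3 rose by 1.15 and 0.67. Ldha, Pgk1 and Hk2 were not called. The falls numbered 3 and 2 without siCtr TGFbeta replicate 2 or 3, and 4 when replicate 1 or 3 of siIrf1 TGFbeta was left out.

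Of 23 genes of the unfolded protein and integrated stress response 5 fell (21.7%) and 1 rose: Chac1, which degrades glutathione, was at 84.0 and 73.4 CPM in siCtr and at 32.0, 40.8 and 22.2 CPM in siIrf1 (-1.31 ± 0.235, edgeR adjusted p = 0.00463), and Atf5 fell by 0.85. Hspa5, Ddit3, Atf4 and Xbp1 were not called. In heat shock and oxidative defence 2 of 23 rose and 2 fell, with Nqo1, a quinone reductase, at 3.42 and 3.96 against 11.4, 12.6 and 12.9 CPM (1.74 ± 0.242) and Hmox1, heme oxygenase 1, at 117 and 106 against 51.1, 59.5 and 43.6 CPM (-1.12 ± 0.188). Of 30 cytosolic ribosomal protein genes 0 rose and 0 fell by edgeR (0 each at an unadjusted p under 0.05 and by DESeq2). Their level ran opposite to the GC index within siIrf1 TGFbeta, since their median log2 difference from siCtr was 0.13, 0.47 and -0.33 in replicates 1, 2 and 3. The falls of stress response genes numbered 2 and 1 without siCtr TGFbeta replicate 2 or 3, 2 without siIrf1 TGFbeta replicate 1, and 8 with the GC trend removed. In heat shock and oxidative defence 4 rose and 4 fell with that trend removed. Leaving out siCtr TGFbeta replicate 2 removed the stress response rise and 1 of the rises in oxidative defence, and replicate 3 did likewise and removed 1 of its falls.

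Among genes reaching 5 CPM in the higher group, the largest rises included several that are known from liver and gut. Spp2, a secreted phosphoprotein, was at 0.502 and 0.466 CPM in siCtr and at 23.3, 33.6 and 26.3 CPM in siIrf1 (5.82 ± 0.366, edgeR adjusted p = 2.86e-05). C9, the pore-forming complement component, was at 0.0558 and 0.133 against 5.28, 4.00 and 5.96 CPM (5.84 ± 0.465; 5.16 without siCtr TGFbeta replicate 2). Aldh1a1, which makes retinoic acid, was at 2.53 and 2.46 against 66.1, 73.6 and 109 CPM (5.05 ± 0.301). The cytochrome P450 genes Cyp2c65 and Cyp2c66 rose by 5.65 and 4.75, and the glucuronosyltransferase Ugt2b36 by 5.26. Removal of the GC trend lowered Cyp2c65, Cyp2c66 and Ugt2b36 to 5.06, 4.09 and 4.35. These 3 genes have close copies, and their counts are uncertain.

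Clic5, a chloride channel-like protein, was at 0.223 and 0.300 CPM in siCtr and at 8.62, 7.99 and 13.4 CPM in siIrf1 (5.28 ± 0.340). Upk1b, a uroplakin of bladder epithelium, was at 0.596 and 1.07 against 14.2, 17.2 and 17.9 CPM (4.34 ± 0.391). Fras1, a basement membrane protein, rose by 5.34 (4.70 without siCtr TGFbeta replicate 2) and Tmigd1, an epithelial adhesion molecule, by 4.39 (3.78 with the GC trend removed). In these genes the 3 siIrf1 replicates lay far closer to each other than to siCtr. The rule that chose them took the largest rises without overlap of the groups' libraries, so this closeness is no separate support. Cep290, a cilium protein, varied more, at 0.726 and 0.899 against 29.1, 18.9 and 3.73 CPM (4.42 ± 0.772, edgeR adjusted p = 0.00438; 0.0581 without siCtr TGFbeta replicate 2, and 3.55 with the GC trend removed).

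The 12 largest falls were of genes that were low at 0 d, where none exceeded the 1.37 CPM of Pcolce2 in siCtr replicate 1. Chrna1, the muscle acetylcholine receptor alpha subunit, was at 46.2 and 57.4 CPM in siCtr TGFbeta and at 2.72, 1.39 and 1.72 CPM in siIrf1 TGFbeta (-4.75 ± 0.286, edgeR adjusted p = 2.86e-05), and at most 0.0628 CPM in any 0 d library. Lce1g, a cornified envelope gene, was at 83.3 and 58.1 against 5.55, 4.73 and 2.02 CPM (-4.10 ± 0.459). The phosphodiesterase Pde2a was at 7.31 and 7.43 against 0.531, 0.405 and 0.241 CPM (-4.21 ± 0.321), and the acid-sensing channel Asic1 at 15.3 and 16.8 against 1.92, 1.31 and 1.23 CPM (-3.43 ± 0.418). Pcolce2, an enhancer of procollagen trimming, was at 25.2 and 30.1 against 3.04, 2.85 and 2.62 CPM (-3.28 ± 0.231). Rufy4, Faim2, Prss50, Sema4f and Pate14 fell by 4.15, 3.29, 3.26, 3.19 and 3.42 on the log2 scale, and Pate14 by 4.36 with the GC trend removed. In Chrna1, Pde2a, Asic1 and Pcolce2 the siIrf1 replicates lay far closer to each other than to siCtr. The rule that chose these genes required that the groups' libraries did not overlap.

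Most markers of other cell types were low, and the part of these markers in the results was not tested. Exceptions in siCtr TGFbeta included Csf1r (31.7 and 34.6 CPM), Cd14 (40.2 and 48.8), Pdgfrb (19.85 and 21.52), Col1a1 (18.3 and 11.7) and Flt1 (12.7 and 13.4). Of 9 immune markers 6 were under 1 CPM in all 5 libraries and 2 at 0, with summed levels of 78.8 and 89.8 CPM in siCtr TGFbeta and 72.4 to 85.8 CPM in siIrf1 TGFbeta. Of the 5 that passed the filter on low counts Cd68 fell by 1.48 on the log2 scale, while Csf1r (0.50), Ptprc (2.26), Lyz2 (2.84) and Cd14 (-0.52) were not called (edgeR adjusted p = 0.132, 0.0943, 0.0518 and 0.0990). With the GC trend removed 2 of the 5 rose and 2 fell. Of 9 endothelial markers 7 were under 1 CPM, and the list summed to 19.4 and 19.4 against 11.6 to 15.1 CPM. Cdh5 fell from 5.81 and 5.03 CPM to 1.83, 1.42 and 1.69 CPM and Vwf by 1.28 on the log2 scale, a call that ended without siCtr TGFbeta replicate 2 (adjusted p = 0.110) or 3 (0.144), and likewise on removal of replicate 1 (0.0887) or 2 (0.0635) of siIrf1 TGFbeta. Of 10 fibroblast and pericyte markers 6 were under 1 CPM and 3 at 0, with sums of 39.0 and 34.6 against 27.2 to 31.5 CPM. Dcn, decorin, had 0 counts in both siCtr TGFbeta libraries and 87 over the siIrf1 TGFbeta libraries, at least 19.1-fold higher against a floor of 3 counts over the group. Of 6 adipocyte markers 5 were under 1 CPM, and Cidec rose from 0.5396 and 0.5995 to 2.77, 4.13 and 2.02 CPM. For the labelled tissue, 11 of 14 mammary luminal markers were under 1 CPM in all 5 libraries and 7 at 0, while Krt8, Krt18 and Krt19 were present. Of 11 basal and myoepithelial markers 5 were under 1 CPM. Krt17 fell from 2.01 and 1.60 to 0.266, 0.304 and 0.120 CPM, Cnn1 fell by 1.68, and Krt5 and Krt14 rose by 1.501 and 1.46, with 0 rises left without either siCtr TGFbeta replicate. Fewer cells with a transcript and less of it per cell cannot be told apart in these bulk samples.

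The knockdown effect with TGFbeta was set beside the effect at 0 d, which uses other libraries. At 0 d, 16.3% of genes rose (2136) and 15.5% fell (2039) with siIrf1. The GC index was higher in every siIrf1 library than in both siCtr libraries at 0 d. Its part in the 0 d and interaction counts was not tested. Of the genes that rose with TGFbeta 726 (56.9%) also rose at 0 d, which is 34.0% of the 0 d rises. Of those that fell 572 (52.6%) also fell at 0 d, 28.1% of the 0 d falls. In the opposite direction 84 genes rose with TGFbeta and fell at 0 d, and 21 fell with TGFbeta and rose at 0 d. The difference between the 2 effects, tested as an interaction, was called for 541 genes (4.12%), 368 with a higher and 173 with a lower value with TGFbeta. Of the genes that fell with TGFbeta 97 had a negative interaction and 10 a positive one, and of those that rose 240 had a positive and 6 a negative one. The change with TGFbeta is part of the interaction value, so genes chosen by that change tend to share its sign. These splits therefore cannot show that the knockdown effect was stronger with TGFbeta. The interaction count ran from 122 to 1590 as single libraries were left out.

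**Figure D5:**
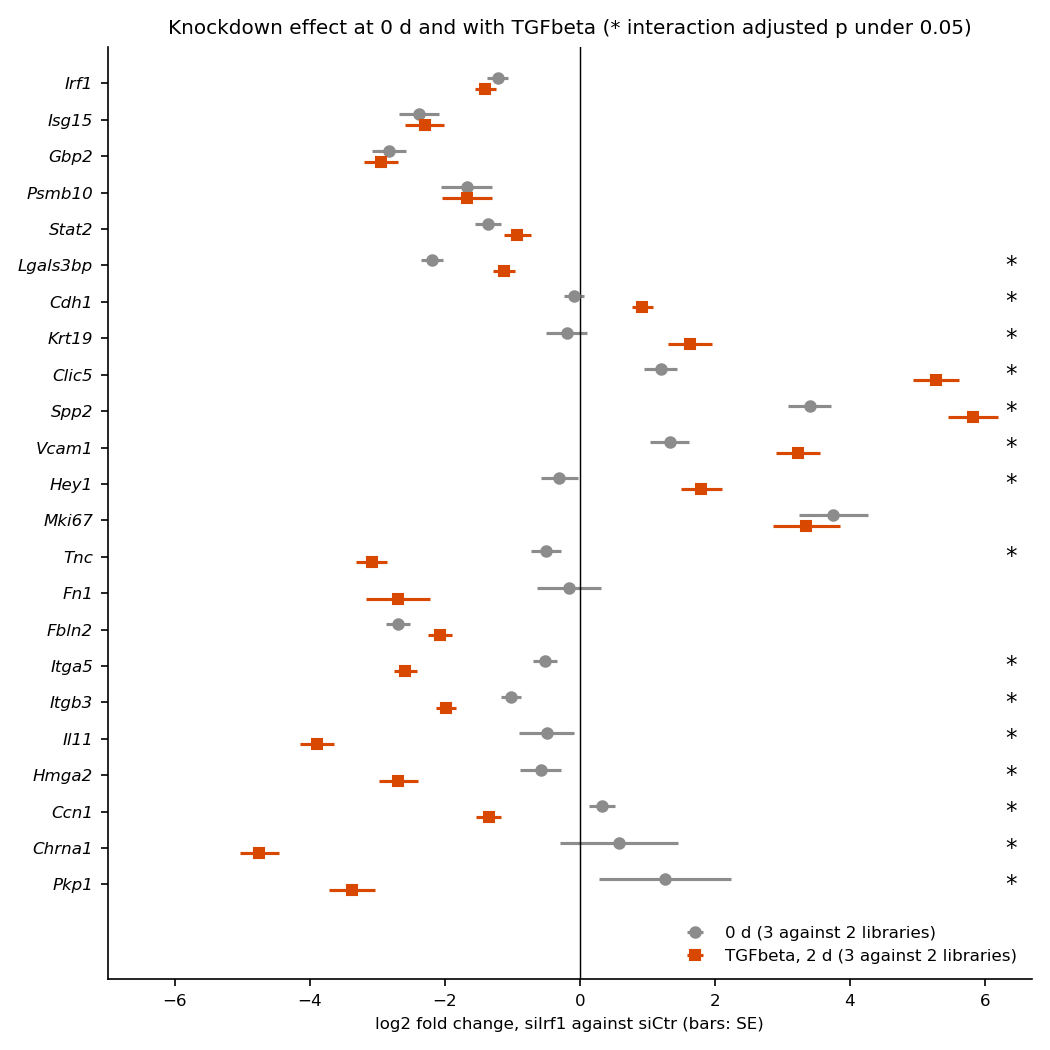
Log2 fold change of siIrf1 over siCtr (x axis) at 0 d (grey circles) and with TGFbeta (orange squares) for 23 genes, with bars of 1 SE and 3 against 2 libraries in each condition. Asterisks mark an interaction with an adjusted p under 0.05. The 2 values nearly coincide for Irf1, Isg15, Gbp2 and Psmb10, and part for Tnc, Itga5, Il11, Chrna1 and Pkp1.

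The interaction was called for 3 of 32 extracellular matrix genes, 2 of them with a negative value. It was negative for all that were called among 31 matrix protease genes (3) and 41 integrin and actin genes (6). Over all 13135 genes tested it was called for 541 (4.12%), of which 173 had a negative value. These lists hold many genes that fell with TGFbeta, and that change is part of the interaction value. Tnc changed by -0.50 at 0 d (adjusted p = 0.110) and by -3.09 with TGFbeta (interaction -2.59, edgeR adjusted p = 0.00242). Itga5 changed by -0.52 and -2.59 (interaction -2.07, adjusted p = 0.00187), and the cytokine Il11 by -0.49 and -3.90 (interaction -3.40, adjusted p = 0.00403). For Fn1 the values were -0.16 and -2.70, and the interaction did not pass the test (-2.54 ± 0.682, adjusted p = 0.0752). Fbln2 fell both at 0 d (-2.70) and with TGFbeta (-2.08), and the interaction did not pass the test (0.62 ± 0.26, edgeR adjusted p = 0.240). Cdh1 was not called at 0 d (-0.09) and rose with TGFbeta (interaction 1.01, adjusted p = 0.0262), and for Krt19 the interaction was 1.82 (adjusted p = 0.0486).

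Isg15, Gbp2 and Tap2 were lower in both conditions. Isg15 changed by -2.39 at 0 d and -2.30 with TGFbeta (interaction adjusted p = 0.933), Gbp2 by -2.83 and -2.94 (0.889), and Tap2 by -2.83 and -1.84 (0.221). Lgals3bp changed by -2.19 at 0 d and -1.13 with TGFbeta (interaction 1.06, edgeR adjusted p = 0.0349). Its siCtr level was 282 and 232 CPM at 0 d against 132 and 126 CPM with TGFbeta, while the siIrf1 libraries of both conditions lay between 48.4 and 64.9 CPM. Vcam1 rose in both conditions, by 1.33 at 0 d and 3.24 with TGFbeta (interaction 1.91, edgeR adjusted p = 0.0297). In the type I interferon-stimulated list 24 of 43 members fell at 0 d and 8 with TGFbeta, and the interaction was called for 3. The shares over all genes tested were 15.5%, 8.28% and 4.12% in the same order.

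The largest interactions among genes reaching 5 CPM came from genes near 0 in a group. Cyp11a1, the first enzyme of steroid synthesis, fell with TGFbeta (20.8 and 27.1 against 3.19, 2.80 and 3.01 CPM) and rose at 0 d from 0.0785 and 0.0606 to 0.314, 0.633 and 0.712 CPM (interaction -5.97, edgeR adjusted p = 0.00102). Tagln likewise fell with TGFbeta and rose at 0 d from 0.0393 and 0.0303 to 0.471, 0.701 and 0.633 CPM (interaction -5.62). Cfi, a complement regulator, was at 6.59 and 6.89 against 7.65, 8.50 and 10.8 CPM with TGFbeta and rose at 0 d from 0.0393 and 0.152 to 5.02, 7.33 and 10.3 CPM (interaction -5.76). Cyp21a1, a steroid hydroxylase, was at 27.7 and 26.1 against 25.6, 34.7 and 22.2 CPM with TGFbeta, and at 1.45 and 1.43 against 0.0628, 0 and 0.0528 CPM at 0 d (interaction 5.26). Rab3b, a vesicle GTPase, rose with TGFbeta (0.335 and 0.466 against 3.04, 4.08 and 3.79 CPM) and fell at 0 d (interaction 4.76). Sult1d1, a sulfotransferase, had 0 counts in both siCtr TGFbeta libraries and 50 over the siIrf1 TGFbeta libraries, at least 10.97-fold higher against a floor of 3 counts over the group (interaction 4.97).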

How the data were processed

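RNA of the 10 libraries was made into stranded libraries and sequenced on an Illumina HiSeq 2500, per the labels' protocols. The deposited table gives the authors' whole-number read counts per gene and a gene length. The submitters' processing notes name STAR and the build mm10 (GRCm38). Not given in the sources used here are the STAR version, the counting tool and whether strand was used, so overlapping genes and close copies may share or lose reads. Of 24454 Entrez identifiers 24374 had a symbol in RefSeq (GRCm38.p6), 7 in GENCODE M21 and 73 none. Libraries held 27547649 to 67301646 counts.

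Libraries were grouped by their labelled siRNA and time with TGFbeta. All 10 libraries entered 1 fit with a term per group in edgeR 4.0.16 (R 4.3.3; TMM, filterByExpr, robust quasi-likelihood F test), which kept 13135 genes, with 6 residual degrees of freedom. Contrasts were siIrf1 against siCtr with TGFbeta, the same at 0 d, and their interaction, adjusted by Benjamini-Hochberg over all genes, threshold 0.05. SE is the log2 fold change over the square root of F. Log2 differences of single replicates used log2(CPM + 0.5). The fit was tested on simulated data with the same spread for every gene and no GC trend. That test could not show how such a trend or a departing library affects the calls.

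The comparison, the 31 gene lists and the rule for named genes were chosen with earlier results of these data known. Named are Irf1, the 12 largest rises and falls among called genes without overlap that reached 5 CPM in the higher group, up to 2 called members of smallest p per list, 9 EMT genes, the 4 largest rises and falls called only without siIrf1 TGFbeta replicate 2, and the 3 largest interactions in each direction. Other list members named in the text were chosen after their values were seen. Titles carry a code that runs with the replicate number and whose meaning is not given. Departures from the group mean correlated, for libraries that share a number, at -0.04 and 0.05 between siIrf1 and siCtr with TGFbeta. Over all 12 same-numbered pairs, which enter the interaction, the range was -0.39 to 0.45, with 0.14, 0.45 and 0.30 between siIrf1 at 0 d and with TGFbeta. Since not every pair exceeded 0.1, numbers were not taken as pairs.

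Alternatives were RLE size factors, no filter, a filter of 2 CPM in 3 libraries, DESeq2 1.42.0, the 5 TGFbeta libraries alone, a replicate block, removal of a trend with gene length and GC content (known for 95% of tested genes) and leaving out each library. No replicate pair agreed within sampling noise (chi-square over its degrees of freedom 25.4 to 321). Floors cover counting error only. Some genes are not reported here.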

Additional observations from a re-analysis of the deposited data

Results flagged for a closer look

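For 38 named genes the knockdown effect differed between TGFbeta and 0 d by the interaction test itself (edgeR, adjusted p under 0.05). Values are log2 changes with TGFbeta less those at 0 d. Genes chosen for a large change with TGFbeta tend to share its sign here, since that change is part of the value. Among the genes with the largest rises the interaction was 2.42 for Spp2, 3.35 for Cyp2c65, 4.08 for Clic5, 2.68 for Ugt2b36, 2.81 for Aldh1a1, 3.99 for Tmigd1 and 2.87 for Upk1b. Among the largest falls it was -5.33 for Chrna1, -4.51 for Pde2a, -3.40 for Il11, -3.83 for Asic1, -4.64 for Pkp1 and -2.20 for Pcolce2.

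Matrix, adhesion and EMT genes had interactions of -2.59 for Tnc, -2.07 for Itga5, -0.96 for Itgb3, -2.11 for Hmga2 and 1.01 for Cdh1. Keratins and contractile genes had 1.82 for Krt19, -7.74 for Krt17, -1.88 for Cnn1 and -5.62 for Tagln. Interferon-related and inflammatory genes had 1.06 for Lgals3bp, 1.91 for Vcam1 and 2.00 for Lcn2. Signalling genes had 2.10 for Hey1, -1.68 for Ccn1, 0.98 for Ptpn14 and -2.77 for Vegfc. Metabolic and stress genes had -1.43 for Pfkfb4, 1.97 for Pdk1, 1.81 for Nqo1 and 2.36 for Cidec. The largest among genes reaching 5 CPM were 5.26 for Cyp21a1, 4.97 for Sult1d1 and 4.76 for Rab3b, and -5.97 for Cyp11a1 and -5.76 for Cfi. Several of these genes are near 0 in a group, where the size of a fitted value depends on the prior count.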

How the results depend on the processing

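The fall of Irf1 with TGFbeta passed the test under every alternative run, from -1.27 to -1.49. The count of 2365 genes was within 1.5 times its value with RLE size factors (2366), no filter (2287), the stricter filter (1872), DESeq2 (3189) and the 5 TGFbeta libraries alone (1581). Removal of the trend with length and GC content gave 3597, and the cause was not tested. Leaving out single libraries gave 762 to 2978 genes, lowest without siCtr TGFbeta replicate 2, where 1 siCtr library is left in that condition. The interaction count of 541 became 1166 by DESeq2, 1252 without that trend and 937 without it and with a replicate block, and 122 to 1590 as single libraries were left out. With the replicate block alone the counts were 2230 and 522, and the shared numbers were not taken as pairs. Of 101 named genes 0 reversed under any alternative, and 68 of the 87 that were called kept their call in all 18. Without siCtr TGFbeta replicate 2 or 3, 18 and 14 lost their call. Genes under 1 CPM rest on few counts.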
